A study of Xenopus laevis with 12 samples.

Results

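This comparison set whole brains of Xenopus laevis tadpoles exposed to thioridazine as embryos against brains of unexposed tadpoles, both at Nieuwkoop-Faber (NF) stage 47, an early feeding stage before metamorphosis. It used 6 of the 12 RNA-seq libraries of the series, chosen by the treatment and stage in the sample labels: 3 thioridazine and 3 control libraries. The other 6 libraries hold the same treatments at NF 45 and were used only to ask whether the NF 47 differences were already there at that stage. The series compared brains of drug-exposed and control tadpoles at both stages, and its title calls the exposed brains abnormal.

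The thioridazine group came from X. laevis embryos kept in 90 µM thioridazine from NF 14 to NF 26. This was done at 18 °C and at 50 embryos per 10 mL, and the embryos were then reared at 14 °C to feeding stages. The control group came from wild-type embryos that went through the same temperatures without the drug. The titles of the thioridazine libraries give no genotype, while those of the control libraries say wild type. The labels record neither an allele nor a transgene for either group. Replicates are numbered as biological ones, with no word on the brains pooled, the parents or the day behind each number, so p-values measure the spread between these libraries. The drug was given during neurulation and the brains were taken many stages later, so the acute response was not measured.

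Thioridazine is a phenothiazine antipsychotic that blocks dopamine receptors and several other receptors and channels. NF 14 to NF 26 is the time when the neural plate rolls up into the neural tube, and when neural crest cells, which give rise to pigment cells and to much of the cartilage and connective tissue of the head, begin to leave it. In a tadpole of NF 47 the brain has its main divisions, a working pituitary lies below it, and pigment cells, meninges, blood vessels and head muscle lie against it.

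Total counts in the 6 libraries lay between 13480201 and 16395159 reads, with 30717 to 30959 of 37018 gene numbers detected in a library. Levels are given as CPM, read counts brought to a common library size with TMM scaling, in the order of replicates 1, 2 and 3 of a group. A gene's level is not scaled by its length, so levels are compared between groups and not between genes. Genes of brain tissue were abundant in all 6 libraries. The neuronal tubulin gene tubb3.L lay between 822.4 and 955.3 CPM, the synaptic gene snap25.L between 483.9 and 574.6 CPM, and the radial glial gene fabp7.L between 2645 and 3547 CPM. The first principal component of log2 CPM, with 40.33% of the variance, set replicate 3 of both groups apart, at 46.87 for thioridazine and 26.38 for control. The second component, with 21.67%, followed the replicate number, and the third, with 14.5%, separated all 3 thioridazine libraries (17.27, 24.59 and 6.34) from all 3 control libraries (-15.4, -15.92 and -16.88). The exposure was thus not the main axis of variance among these libraries.

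Fold changes centred on 0. The median log2 fold change over the 25648 genes tested was 0.002, with 12985 genes higher and 12663 lower after thioridazine. With the 6 libraries in 2 unpaired groups, 0 genes passed an adjusted p of 0.05 in edgeR's quasi-likelihood test. At an unadjusted p under 0.05 this test had 688 genes (2.68%), fewer than that threshold gives where no gene differs. DESeq2 called 11 genes in the same design. Libraries that share a number deviated together from their group means, with correlations of 0.308, 0.316 and 0.542, so the difference was also tested within numbers. With the replicate number as a block, 1967 genes had an unadjusted p under 0.05 in edgeR. At an adjusted p under 0.05 the blocked edgeR test called 49 genes, or 0.191% of those tested. Of these, 45 (0.175%) rose and 4 (0.0156%) fell. All 49 differed in 1 direction in all 3 pairs, which the blocked test itself favours, so this is no further support. In 25 of them the 3 thioridazine values did not overlap the 3 control values. Over all genes tested, 3.8% did not overlap in the higher direction and 3.45% in the lower. The 49 were chosen on these same values. Below, "rose", "fell" and "called" refer to this blocked test, and its adjusted p is the one given unless another is named. The unpaired edgeR test, with 0 calls, was the planned main test, and the block was a planned variant of it.

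The blocked count depended on the libraries used. DESeq2 with the block called 52 genes, 46 of them among the 49. The count was 166 without replicate 1 of both groups, 382 without replicate 2 and 72 without replicate 3, and 48, 46 and 37 of the 49 genes were still called. Each of these fits used fewer libraries but called more genes than the full fit. Staying called in them is therefore no separate support. The split between directions moved as well, with 105 higher and 61 lower without replicate 1, 164 higher and 218 lower without replicate 2, and 70 higher and 2 lower without replicate 3. In a blocked fit of all 12 libraries, whose spread includes the NF 45 libraries, only gpnmb.L of the 49 was still called, and all 49 kept their direction. In the unpaired test, leaving out 1 library gave 10 calls without control replicate 3, 5 without thioridazine replicate 1 and 0 without any of the others.

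**Figure D1:**
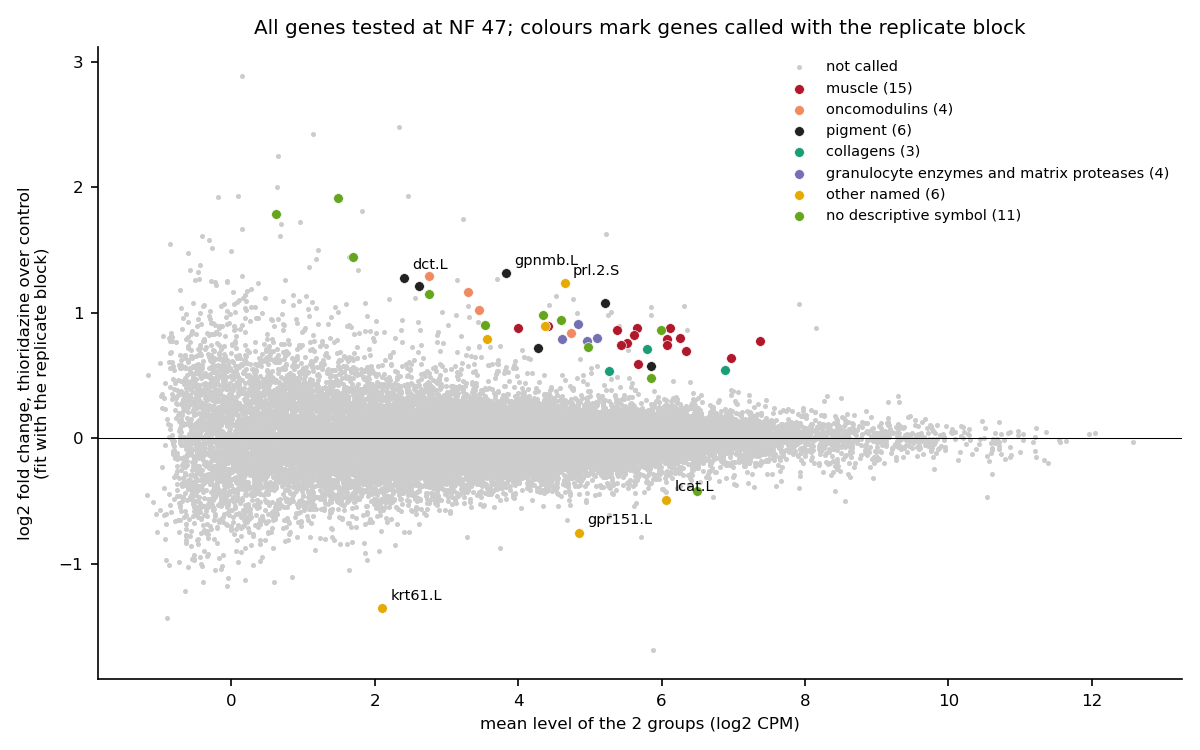
Each point is one of the 25648 genes tested at NF 47, with its mean level (log2 CPM, x axis) and its log2 fold change, thioridazine over control, in the fit with the replicate number as a block (y axis). The coloured points are the 49 called genes, 45 above and 4 below 0. The cloud centres on a median of 0.001.

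Grouped by what their products are known to do, a grouping made after the values were seen, the 38 called genes with a descriptive symbol held 15 genes of the muscle contractile apparatus, 4 oncomodulins, 6 pigment cell genes, 3 collagens, 4 genes of granulocyte enzymes and matrix proteases, and 6 others. The other 11 called genes have no descriptive symbol, and 10 of them were higher after thioridazine. Because whole tissue was measured, more cells of a type and more RNA per cell cannot be told apart in any of these groups. Nor can either be told apart from more adjoining tissue taken along at dissection, which was not tested.

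The gene prl.2.S, named for prolactin and placed on the list of pituitary hormones and their regulators, rose. Whole-brain libraries do not show whether its reads came from the pituitary. Prolactin is a hormone of the anterior pituitary that in tadpoles is known for its interplay with thyroid hormone. The level of prl.2.S was 31.5, 46.8 and 27.8 CPM in thioridazine libraries, against 12.6, 17.9 and 14.2 CPM in control libraries. All 3 exposed libraries lay above all 3 controls. The log2 fold change was 1.24 ± 0.11 (SE, edgeR with block, adjusted p = 0.000824), and the pairs gave 1.31, 1.39 and 0.97. The gene stayed called without any 1 of the 3 pairs, in fits that each called more genes than the full one.

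No other gene of the pituitary list was called. This list and those below were drawn up with earlier results of these data known, so their counts and medians are descriptions without a test. Of 31 tested members, prl.2.S was the 1 called gene, 11 were higher and 20 lower, and the median log2 fold change was -0.11, or -0.16 without thioridazine replicate 2. The summed level of the list was 2659, 2796 and 2399 CPM in thioridazine libraries and 2621, 2768 and 2573 CPM in control libraries, so the groups overlapped. The pituitary transcription factor gene lhx3.L had 13.3, 12.2 and 11.9 CPM in thioridazine libraries, against 9.99, 9.60 and 10.6 CPM in control libraries, with a log2 fold change of 0.31 that was not called (adjusted p = 0.638). The thyrotropin subunit gene tshb.S had 1.01, 1.65 and 1.08 CPM in thioridazine libraries and 1.54, 2.13 and 2.50 CPM in control libraries, which overlapped and was not called (adjusted p = 0.603).

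Pigment cell genes rose as a group of 6, with log2 fold changes between 0.58 and 1.32. The melanosome glycoprotein gene gpnmb.L had 12.8, 20.2 and 27.8 CPM in thioridazine libraries, against 5.20, 8.12 and 11.03 CPM in control libraries. Its groups did not overlap, and the log2 fold change was 1.32 ± 0.13 (SE, edgeR with block, adjusted p = 0.000824), with 1.28, 1.30 and 1.33 in the pairs. The gene pmel.S, for the amyloid scaffold on which melanin is laid down, had 28.1, 37.8 and 82.8 CPM in thioridazine libraries, against 10.8, 19.5 and 43.1 CPM in control libraries. Here the groups overlapped, since replicate 3 was the highest of both groups, but each pair differed in the same direction and the log2 fold change was 1.07 ± 0.11 (adjusted p = 0.000824). The copy pmel.L of this gene was not called. That copy had 675, 559 and 1314 raw reads in thioridazine libraries, against 319, 517 and 794 in control libraries.

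Enzymes of melanin synthesis rose too. The dopachrome tautomerase gene dct.L had 5.99, 4.45 and 12.4 CPM in thioridazine libraries, against 2.07, 2.71 and 4.37 CPM in control libraries, with a log2 fold change of 1.28 (adjusted p = 0.0258). The lowest exposed library stood just above the highest control. Its partner tyrp1.L, of the tyrosinase family, averaged 68.9 ± 28.3 CPM in thioridazine libraries and 46.6 ± 19.4 CPM in control libraries (SD, n = 3 each), and rose by 0.58 on the log2 scale within pairs (edgeR with block, adjusted p = 0.0323). The xanthine dehydrogenase gene xdh.S, whose enzyme acts in the pteridine pathway of yellow pigment cells, had 5.49, 9.61 and 10.4 CPM in thioridazine libraries, against 1.95, 4.13 and 5.20 CPM in control libraries (log2 fold change 1.21, adjusted p = 0.0123). The lowest exposed library was here only a little above the highest control. The pigment cell endothelin receptor gene ednrb2.S had 22.6, 21.2 and 28.2 CPM in thioridazine libraries, against 11.1, 15.02 and 18.2 CPM in control libraries (log2 fold change 0.72, adjusted p = 0.0383). Its copy ednrb2.L went the other way at -0.18, which was not called (adjusted p = 0.828).

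In all 6 of these genes replicate 3 was the highest library of its own group. Without that pair dct.L (adjusted p = 0.334), tyrp1.L (0.154) and ednrb2.S (0.115) were no longer called, and ednrb2.S was also not called without replicate 1 (0.054). Over the whole list of melanin and pigment cell genes, 36 of 45 tested members were higher, 8 (17.8%) had groups that did not overlap in the higher direction and 0 in the lower. The list includes 6 called genes, so these shares are not separate from the calls. Over all genes, 974 (3.8%) did so in the higher direction and 884 (3.45%) in the lower. The median of the list was 0.12, and its summed level was 906.5, 891.6 and 1071 CPM in thioridazine libraries, against 750.8, 804.3 and 937.7 CPM in control libraries. Replicates 1 and 2 of the thioridazine group lay below replicate 3 of the controls, while each pair differed the same way.

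**Figure D2:**
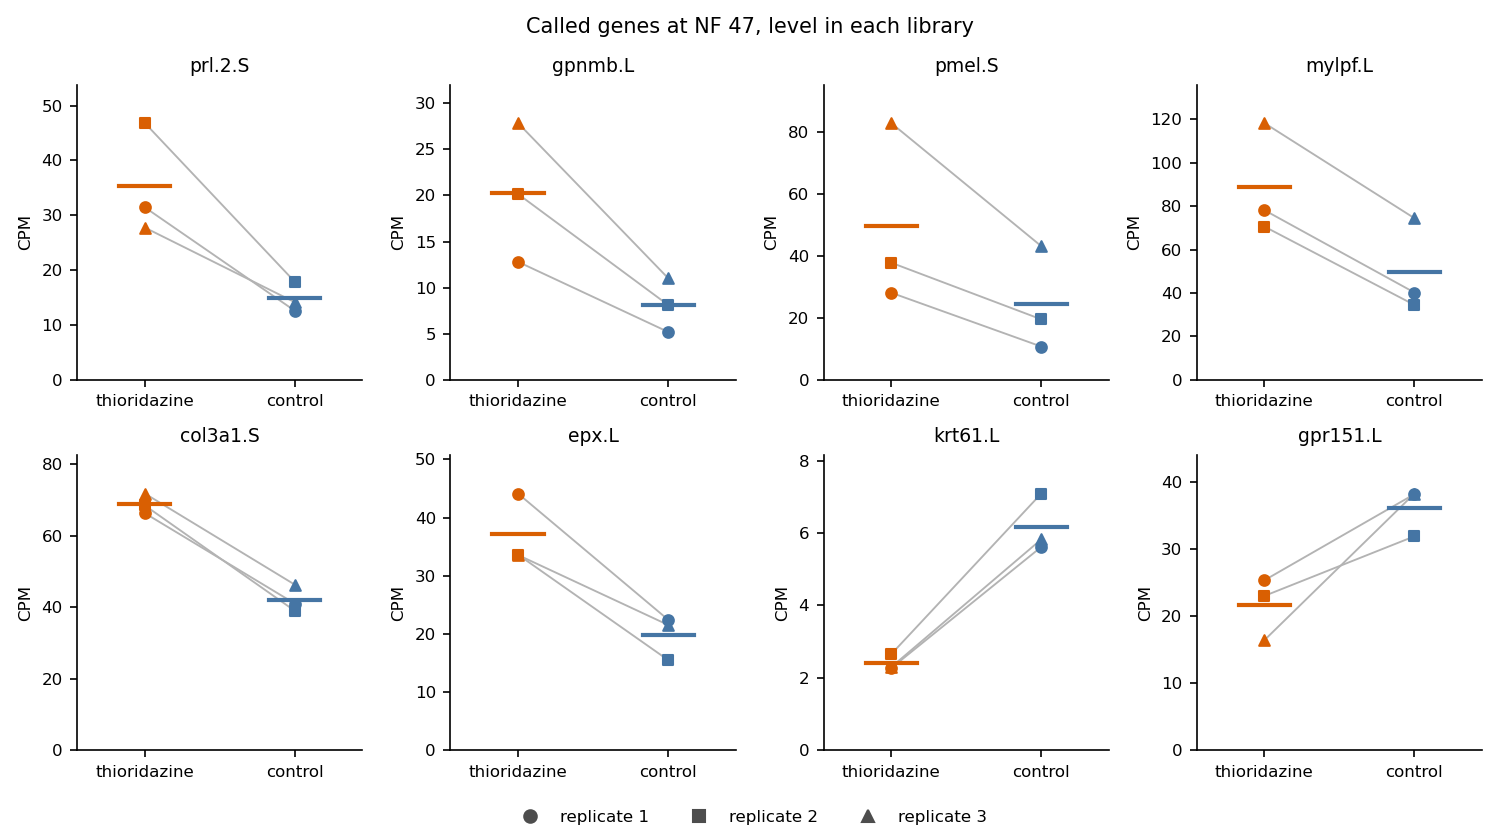
Levels (CPM) of 8 called genes in each NF 47 library, thioridazine left of control, with bars at the group means and lines joining libraries of the same replicate number. The exposed library is above its same-numbered control in every pair of the 6 genes that rose, for example gpnmb.L, and below it in krt61.L and gpr151.L, which fell.

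Muscle genes were the most numerous called group. The 15 called genes rose by 0.59 to 0.90 on the log2 scale and encode myosin light chains (mylpf.L, myl1.L, myl1.S), actins (actc1.L, actc1.S, acta4.L, acta4.S), troponins (tnnc2, tnni2 and tnnt3, both copies of each), tropomyosin (tpm1.L) and a myosin-binding protein (mybph.S). The fast light chain gene mylpf.L had 78.1, 70.6 and 118 CPM in thioridazine libraries, against 40.2, 34.5 and 74.4 CPM in control libraries, with a log2 fold change of 0.88 ± 0.09 (SE, edgeR with block, adjusted p = 0.000845). The cardiac and embryonic skeletal actin gene actc1.L had 149.8, 101.6 and 204.8 CPM in thioridazine libraries, against 95.3, 62.3 and 139.2 CPM in control libraries (log2 fold change 0.64, adjusted p = 0.00255).

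The muscle genes followed the replicate number as well as the exposure. In all 15, replicate 3 was the highest and replicate 2 the lowest library of each group, and the groups overlapped in 13 of 15. Fast troponin C, the calcium sensor of the thin filament, shows the order of the replicates. Its gene tnnc2.L was 1 of only 2 among the 15 whose groups did not overlap. The gene tnnc2.L had 62.9, 54.9 and 76.4 CPM in thioridazine libraries and 31.9, 24.2 and 53.5 CPM in control libraries, so the lowest exposed library was just above the highest control (adjusted p = 0.00421). In tnni2.S, for fast troponin I, the levels were 79.5, 63.1 and 106.0 CPM in thioridazine libraries and 41.1, 31.8 and 84.4 CPM in control libraries, which overlapped, and its call was lost without replicate 2 (adjusted p = 0.0732, against 0.0282 with all pairs). The call of actc1.S was lost without replicate 3 (adjusted p = 0.154).

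The 4 called oncomodulins, small calcium-binding proteins of the parvalbumin family, rose as well. They largely shared the replicate order of the muscle genes. Replicate 2 was the lowest library of each group in all 4. Replicate 3 was the highest control in all 4 and the highest exposed library in 3. Whether their RNA came from muscle was not tested. The gene ocm4.3.L had 7.31, 6.67 and 14.7 CPM in thioridazine libraries, against 3.19, 2.13 and 6.66 CPM in control libraries (log2 fold change 1.29, adjusted p = 0.00636), and ocm4.9.L had 14.1, 9.83 and 16.6 CPM in thioridazine libraries, against 4.73, 4.38 and 9.43 CPM in control libraries (log2 fold change 1.17, adjusted p = 0.00917). The others, ocm4.1.S and ocm4.2.L, rose by 0.84 and 1.02 on the log2 scale, and the call of ocm4.2.L was lost without replicate 2 (adjusted p = 0.0556). The copies ocm4.2.S and ocm4.3.S had log2 fold changes of 1.06 and 0.63 and were not called (adjusted p = 0.598 and 0.752), and the third pair of ocm4.3.S went the other way, at -0.16. Oncomodulin genes, like the actin genes above, are near copies of each other, and reads may have been split between them, so their single values are uncertain.

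Over the whole list of skeletal and cardiac muscle markers, a tissue outside the brain, 0 of 90 gene copies were at 0 in all libraries and 71 were tested. Of those, 55 were higher, 12 were called higher and 0 lower, where 0.175% of all genes were called higher. The members were chosen with earlier results of these data known, so this is a description and no test. Of the 71, 5 (7.04%) had groups that did not overlap in the higher direction and 0 in the lower, against 3.8% and 3.45% of all genes, and the median log2 fold change was 0.51, with 0.45, 0.51 and 0.51 in the pairs. It was 0.19 without thioridazine replicate 3 and 0.33 without control replicate 2. The summed level was 1843, 1418 and 2266 CPM in thioridazine libraries, against 1135, 756 and 1670 CPM in control libraries. The spread within a group was wide, with replicate 2 of the thioridazine group below replicate 3 of the controls. Whether muscle RNA has a part in the other differences at NF 47 was not tested.

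**Figure D3:**
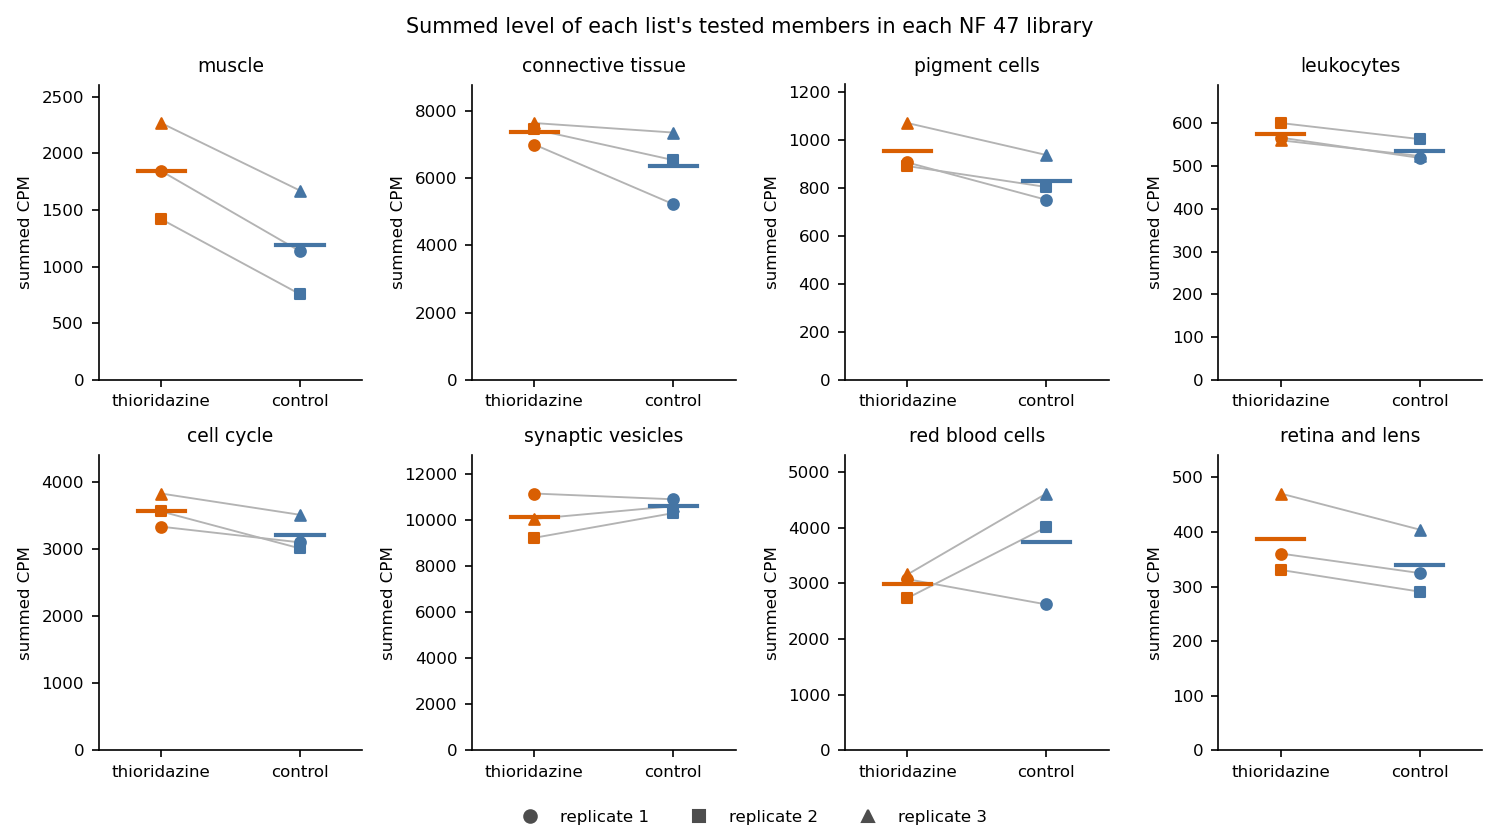
Summed level (CPM) of the tested members of 8 gene lists in each NF 47 library, thioridazine left of control, with bars at the group means and lines joining libraries of the same replicate number. The muscle sum is 1418 to 2266 CPM in thioridazine libraries and 756 to 1670 CPM in control libraries, with replicate 3 highest in both groups.

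Of the collagen genes 3 rose. The fibrillar collagen III gene col3a1.S, of loose connective tissue and vessel walls, had 66.3, 68.5 and 71.8 CPM in thioridazine libraries, against 41.0, 39.0 and 46.3 CPM in control libraries. Every exposed library was well above every control, and the log2 fold change was 0.71 ± 0.08 (SE, edgeR with block, adjusted p = 0.00221). In the unpaired edgeR test it had the smallest p of all named genes (unadjusted p = 2.09e-05, adjusted p = 0.409). Its copy col3a1.L had 127.3, 138.1 and 153.2 CPM in thioridazine libraries, against 85.1, 89.9 and 112.6 CPM in control libraries, with a log2 fold change of 0.55 (adjusted p = 0.00616). The collagen VI gene col6a5.S had 43.0, 45.5 and 47.6 CPM in thioridazine libraries, against 28.1, 29.7 and 36.3 CPM in control libraries (log2 fold change 0.54, adjusted p = 0.0297). In another chain of collagen VI, col6a1.S, the groups did not overlap either, with 28.9, 37.9 and 38.5 CPM in thioridazine libraries and 23.9, 24.6 and 25.3 CPM in control libraries, but the gene was not called (log2 fold change 0.50, adjusted p = 0.0932).

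Among 86 tested genes of cartilage, bone and connective tissue, both copies of col3a1 were the 2 called, 9 (10.5%) had groups that did not overlap in the higher direction and 1 in the lower, against the 3.8% and 3.45% of all genes. The median log2 fold change was 0.17, with 0.26, 0.29 and 0.04 in the pairs, and 0.09 without control replicate 1. The summed level was 7000, 7452 and 7640 CPM in thioridazine libraries and 5228, 6539 and 7357 CPM in control libraries, and the groups overlapped.

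Genes of granulocytes and of matrix breakdown rose too. The peroxidase genes epx.L and mpo.L, named for enzymes of eosinophils and neutrophils, were higher in every exposed library than in any control. The levels of epx.L were 44.1, 33.6 and 33.6 CPM in thioridazine libraries, against 22.5, 15.5 and 21.6 CPM in control libraries (log2 fold change 0.91 ± 0.11, SE, edgeR with block, adjusted p = 0.0026). Those of mpo.L were 36.3, 26.5 and 30.0 CPM in thioridazine libraries, against 20.1, 15.9 and 17.4 CPM in control libraries (log2 fold change 0.79, adjusted p = 0.00373). The other copy, mpo.S, had 6.62, 3.08 and 5.47 CPM in thioridazine libraries and 5.26, 5.03 and 5.34 CPM in control libraries, without a difference that passed the test.

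The matrix metalloproteinase genes mmp7.L and mmp9.1.S, whose enzymes cut extracellular matrix, rose by 0.80 and 0.77 on the log2 scale (adjusted p = 0.0026 and 0.0278). In mmp7.L the levels were 54.7, 36.0 and 40.8 CPM in thioridazine libraries, against 27.8, 21.2 and 25.9 CPM in control libraries, without overlap. In mmp9.1.S they were 55.5, 39.0 and 24.7 CPM in thioridazine libraries, against 27.1, 20.6 and 19.97 CPM in control libraries, so replicate 3 of the exposed libraries lay below the highest control, and the call was lost without replicate 2 (adjusted p = 0.0632).

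Of 47 tested markers of microglia, macrophages and leukocytes, mpo.L was the 1 called, 37 were higher, and 7 (14.9%) had groups that did not overlap in the higher direction and 0 in the lower, against 3.8% and 3.45% of all genes. The median of that list was 0.14, which became 0.06 without thioridazine replicate 2, 0.24 without thioridazine replicate 3 and 0.22 without control replicate 2. The leukocyte phosphatase gene ptprc.L, a marker of all white blood cells, had 1.39, 1.51 and 1.49 CPM in thioridazine libraries, against 0.769, 0.580 and 1.11 CPM in control libraries. Its log2 fold change of 0.84 was not called (adjusted p = 0.58), at a level near 1 CPM. The progranulin gene grn.L, of microglia and lysosomes, had 37.0, 35.4 and 34.0 CPM in thioridazine libraries and 30.2, 30.7 and 29.1 CPM in control libraries, a small difference without overlap that was not called (adjusted p = 0.547).

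Of the genes on the list of skin and other epithelium, 1 called gene rose and 1 fell. The gene elf3.S, for a transcription factor of epithelial cells, had 29.7, 24.0 and 27.3 CPM in thioridazine libraries, against 13.1, 14.9 and 15.7 CPM in control libraries, and rose by 0.89 ± 0.12 on the log2 scale (SE, edgeR with block, adjusted p = 0.00567). Its copy elf3.L moved as far, at 14.1, 8.97 and 12.03 CPM in thioridazine libraries and 4.14, 7.22 and 6.52 CPM in control libraries, but was not called (adjusted p = 0.201). The keratin gene krt61.L fell to 2.27, 2.65 and 2.30 CPM in thioridazine libraries, against 5.62, 7.09 and 5.83 CPM in control libraries. This was the deepest fall of any called gene, with a log2 fold change of -1.35 ± 0.20 (SE, adjusted p = 0.0114, and 0.0538 without replicate 3). The other copy, krt61.S, had 2.21, 2.87 and 1.35 CPM in thioridazine libraries and 1.83, 3.09 and 1.87 CPM in control libraries. That copy overlapped between groups and was not called (log2 fold change -0.08, adjusted p = 0.972). Of the 54 tested genes of skin and other epithelium, 38 were higher and 16 lower. Without overlap, 6 (11.1%) were higher and 2 (3.7%) lower, against 3.8% and 3.45% of all genes. The median was 0.12, with 0.35, -0.004 and -0.02 in the pairs. It was -0.02 without control replicate 1 and 0.20 without control replicate 2, so this list has no direction that all libraries share.

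The last called gene that rose and has a descriptive symbol, sall4.L, encodes a zinc-finger transcription factor known from pluripotent and early embryonic cells. Its levels were 14.6, 14.9 and 15.5 CPM in thioridazine libraries, against 7.80, 7.67 and 10.8 CPM in control libraries (log2 fold change 0.79, adjusted p = 0.0451, and 0.0652 without replicate 3). The exposed libraries were nearly equal to each other, and all lay above the controls. The copy sall4.S was not called, with 79, 54 and 71 raw reads in thioridazine libraries and 66, 46 and 53 in control libraries.

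Genes that were higher without being called, among the 15 with a descriptive symbol and the smallest unpaired p in that direction, included cish.L, gjb2.L and phyhdlc.1.L. The gene cish.L encodes an inhibitor of cytokine signalling, and had 14.6, 13.5 and 17.6 CPM in thioridazine libraries, against 9.58, 7.99 and 9.99 CPM in control libraries. It missed the threshold narrowly (adjusted p = 0.0534), and its copy cish.S had 9.90, 9.18 and 14.6 CPM in thioridazine libraries, against 6.74, 7.22 and 7.97 CPM in control libraries. The connexin gene gjb2.L, for a gap junction subunit, had 19.5, 26.8 and 19.4 CPM in thioridazine libraries, against 13.7, 14.6 and 13.5 CPM in control libraries (adjusted p = 0.0676). In phyhdlc.1.L the levels were 8.45, 8.32 and 8.72 CPM in thioridazine libraries, against 1.89, 0.193 and 2.77 CPM in control libraries. Its controls were far apart, and the log2 fold change of 2.48 was not called (adjusted p = 0.292).

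Of the 11 called genes without a descriptive symbol, 5 had groups that did not overlap. LOC108709516 had 4.098, 4.38 and 4.73 CPM in thioridazine libraries, against 1.60, 0.387 and 1.60 CPM in control libraries, and its log2 fold change of 1.92 (edgeR with block, adjusted p = 0.0306) was the highest of all 49. LOC108717536 had 2.08, 2.80 and 2.30 CPM in thioridazine libraries, against 0.591, 0.580 and 0.901 CPM in control libraries (log2 fold change 1.79, adjusted p = 0.0425). Both were low in the control libraries, and their groups did not overlap. In DESeq2 with the block LOC108717536 was not called (adjusted p = 0.311), while LOC108709516 was (adjusted p = 0.01). In the NF 45 controls LOC108709516 lay at 0.941, 0.125 and 6.31 CPM.

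Besides krt61.L, 2 genes with a descriptive symbol fell. The receptor gene gpr151.L encodes an orphan receptor that in mouse and zebrafish marks neurons of the habenula. It fell to 25.4, 23.0 and 16.4 CPM in thioridazine libraries, against 38.2, 31.9 and 38.3 CPM in control libraries, with a log2 fold change of -0.75 ± 0.13 (SE, edgeR with block, adjusted p = 0.0383). The pairs gave -0.59, -0.47 and -1.22, and the call was lost without replicate 3 (adjusted p = 0.206). The gene lcat.L, for an enzyme that esterifies cholesterol on lipoproteins, fell to 46.7, 54.5 and 66.01 CPM in thioridazine libraries, against 68.0, 84.96 and 80.9 CPM in control libraries (log2 fold change -0.49, adjusted p = 0.0383). The groups of both genes did not overlap. Without any 1 of the pairs lcat.L stayed called, in fits that each called more genes than the full one.

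Of the 15 lower genes with a descriptive symbol and the smallest unpaired p, 12 were not called. The ephrin receptor gene epha8.L, first among them, had 3.41, 2.65 and 2.70 CPM in thioridazine libraries, against 6.03, 5.16 and 5.20 CPM in control libraries (log2 fold change -0.90, edgeR with block, adjusted p = 0.133). The secreted C1q-like protein gene c1qtnf4.L followed, with 28.4, 31.6 and 25.5 CPM in thioridazine libraries, against 39.96, 37.4 and 39.5 CPM in control libraries (adjusted p = 0.129). The synaptic adhesion gene lrfn1.2.S, the sodium channel subunit gene scn4b.L and the mitochondrial folate enzyme gene mthfd2.L had log2 fold changes of -0.43, -0.39 and -0.39 (adjusted p = 0.168, 0.227 and 0.108).

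The other genes of the 12 are described next or with their lists. The neuropeptide gene cck.L, for cholecystokinin, had 24.7, 20.6 and 22.4 CPM in thioridazine libraries, against 28.9, 32.7 and 30.1 CPM in control libraries (log2 fold change -0.44, edgeR with block, adjusted p = 0.227). Its copy cck.S had 5.99, 7.46 and 7.64 CPM in thioridazine libraries, against 9.28, 17.3 and 10.8 CPM in control libraries, and so lay lower in both copies without overlap. The nicotinic receptor subunit gene chrna4.L had 29.1, 23.0 and 24.9 CPM in thioridazine libraries, against 42.2, 34.9 and 31.4 CPM in control libraries (log2 fold change -0.49, adjusted p = 0.0779), while its copy chrna4.S was at 0.01 (adjusted p = 0.993).

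The transcription factor gene tal2.S, which in mouse is needed for GABA neurons of the midbrain, had 27.0, 26.3 and 23.0 CPM in thioridazine libraries, against 43.3, 34.9 and 31.1 CPM in control libraries (log2 fold change -0.51, edgeR with block, adjusted p = 0.0676). The heavy neurofilament gene nefh.S had 21.8, 21.7 and 23.2 CPM in thioridazine libraries, against 29.1, 32.0 and 28.5 CPM in control libraries (log2 fold change -0.42, adjusted p = 0.201). The relaxin-family receptor gene rxfp3.L had 18.9, 19.6 and 19.6 CPM in thioridazine libraries, against 24.4, 24.6 and 26.7 CPM in control libraries (log2 fold change -0.38, adjusted p = 0.292). In each of these all exposed libraries lay below all controls.

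In lists of neuronal function more members were lower than higher, and 0 were called. Of 79 tested genes of transmitter receptors and synthesis, 58 were lower, 8 (10.1%) had groups that did not overlap in the lower direction and 0 in the higher, and the median log2 fold change was -0.13. That median was -0.06 without thioridazine replicate 3 and -0.06 without control replicate 1. Of 60 tested genes of synaptic vesicles and active zones, 47 were lower and 7 (11.7%) did not overlap in the lower direction, with a median of -0.10, or -0.06 without either of the same 2 libraries. Against these counts stand the 3.45% of all genes that did not overlap in that direction.

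Single synaptic genes showed small and even differences. The vesicle fusion gene vamp2.S had 168.2, 167.1 and 167.2 CPM in thioridazine libraries, against 218.9, 201.4 and 193.1 CPM in control libraries (log2 fold change -0.29, edgeR with block, adjusted p = 0.282). The syntaxin gene stx1a.L had 25.7, 24.5 and 24.3 CPM in thioridazine libraries, against 31.2, 30.8 and 30.8 CPM in control libraries (log2 fold change -0.31, adjusted p = 0.384). The other copy of vamp2, vamp2.L, had overlapping groups, with 637.5, 521.0 and 725.2 CPM in thioridazine libraries and 706.2, 688.5 and 675.7 CPM in control libraries. The summed level of the synaptic vesicle list overlapped as well, at 11150, 9229 and 10050 CPM in thioridazine libraries and 10900, 10300 and 10600 CPM in control libraries.

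Neuronal differentiation genes had a median of -0.035 over 61 tested members, with 5 (8.2%) lower without overlap and 0 higher, against 3.45% and 3.8% of all genes, and this median was 0.02 without control replicate 1. Of 28 tested genes of astroglia and radial glia, 4 (14.3%) lay lower without overlap and 0 higher, beside the same shares of all genes, with a median of -0.02, which was 0.04 without control replicate 3. The glial genes lower without overlap included clu.L, for the secreted chaperone clusterin, with 39.0, 42.6 and 39.5 CPM in thioridazine libraries and 45.9, 51.0 and 50.7 CPM in control libraries (edgeR with block, adjusted p = 0.365).

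Of 110 tested genes of the cell cycle and DNA replication, 100 were higher and 10 lower, and 21 (19.1%) had groups that did not overlap in the higher direction, against 0 in the lower and 3.8% of all genes in the higher. The median log2 fold change was 0.15, with 0.10, 0.25 and 0.15 in the pairs, and 0 members were called. The condensin gene smc4.L, which packs chromosomes for division, had 81.7, 80.0 and 84.2 CPM in thioridazine libraries, against 63.7, 57.8 and 75.2 CPM in control libraries (log2 fold change 0.33, edgeR with block, adjusted p = 0.227). The topoisomerase gene top2a.L had 199.5, 193.4 and 187.4 CPM in thioridazine libraries, against 163.5, 135.4 and 173.4 CPM in control libraries (log2 fold change 0.30, adjusted p = 0.331). The mitotic kinesin gene kif20a.L had 26.6, 24.5 and 29.9 CPM in thioridazine libraries, against 21.5, 19.9 and 23.0 CPM in control libraries (log2 fold change 0.33, adjusted p = 0.382). In each of the 3 the lowest exposed library was above the highest control, by a small margin. The summed level of the list was 3334, 3561 and 3828 CPM in thioridazine libraries and 3100, 3010 and 3511 CPM in control libraries, where replicate 3 of the controls lay above replicate 1 of the exposed libraries.

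Neural progenitor genes had a median of 0.11 over 63 tested members, with 49 higher, and with 6 (9.52%) higher and 1 (1.59%) lower without overlap, against 3.8% and 3.45% of all genes. That median was 0.07 without thioridazine replicate 3 and 0.06 without control replicate 2. None of these members was called.

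Among regional genes, 92 copies of forebrain and eye field genes had a median of 0.07, with 8 (8.7%) higher and 3 (3.26%) lower without overlap, and 75 midbrain and hindbrain genes had a median of 0.05, with 10 (13.3%) higher and 3 (4%) lower. Over all genes the shares were 3.8% and 3.45%, so the lower shares were close to those of all genes. Leaving out 1 library moved the forebrain median to 0.12 without control replicate 1, 0.11 without thioridazine replicate 2 and 0.04 without control replicate 2, and the midbrain and hindbrain median to 0.02 without thioridazine replicate 1 and -0.02 without control replicate 2. The forebrain gene eomes.S, a T-box factor of pallial neurons, had 47.9, 42.5 and 45.9 CPM in thioridazine libraries, against 37.6, 26.9 and 34.5 CPM in control libraries (log2 fold change 0.47, edgeR with block, adjusted p = 0.0792), and its copy eomes.L was also higher without overlap. The homeobox gene six3.S, of the anterior forebrain and eye, had 54.4, 45.5 and 63.0 CPM in thioridazine libraries, against 44.2, 36.0 and 42.2 CPM in control libraries (log2 fold change 0.41, adjusted p = 0.128). In the other direction lhx9.L, a LIM-homeobox gene of the dorsal thalamus and pallium, had 76.5, 76.7 and 71.8 CPM in thioridazine libraries, against 98.4, 86.3 and 95.7 CPM in control libraries (log2 fold change -0.32, adjusted p = 0.227). In the hindbrain list atoh1.L, a gene of granule cell precursors in the rhombic lip, had 9.90, 8.75 and 8.85 CPM in thioridazine libraries, against 6.39, 5.35 and 6.80 CPM in control libraries (log2 fold change 0.57, adjusted p = 0.317).

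Since thioridazine blocks dopamine receptors, genes of monoamine signalling were looked at by name. The dopamine D2 receptor gene drd2.L had 14.1, 14.8 and 13.5 CPM in thioridazine libraries and 13.2, 13.7 and 12.6 CPM in control libraries, and drd2.S had 15.5, 13.3 and 11.1 CPM in thioridazine libraries and 13.7, 13.3 and 12.3 CPM in control libraries. The tyrosine hydroxylase gene th.L, for the first enzyme of dopamine synthesis, had 12.7, 10.0 and 10.7 CPM in thioridazine libraries and 10.1, 10.5 and 10.3 CPM in control libraries. The groups overlapped in all 4 copies of these genes, and the log2 fold changes in the unpaired edgeR fit were 0.10 ± 0.14 for drd2.L, 0.02 ± 0.16 for drd2.S, 0.12 ± 0.16 for th.L and 0.03 ± 0.25 for th.S (SE).

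The enzyme after tyrosine hydroxylase did lie higher in every exposed library. The gene ddc.L, for aromatic amino acid decarboxylase, had 31.2, 26.1 and 28.0 CPM in thioridazine libraries, against 22.6, 22.8 and 24.3 CPM in control libraries (log2 fold change 0.29, edgeR with block, adjusted p = 0.502). The list also holds the muscarinic acetylcholine receptor gene chrm2.L, which is no gene of monoamine signalling and was lower without overlap, at 18.9, 19.1 and 15.95 CPM in thioridazine libraries and 26.7, 22.9 and 19.8 CPM in control libraries (adjusted p = 0.384). Over 75 tested genes of the monoamine list, 46 were lower. Without overlap, 2 (2.67%) were higher and 5 (6.67%) lower, against 3.8% and 3.45% of all genes, and the median was -0.08, or -0.015 without control replicate 1. None was called.

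**Figure D4:**
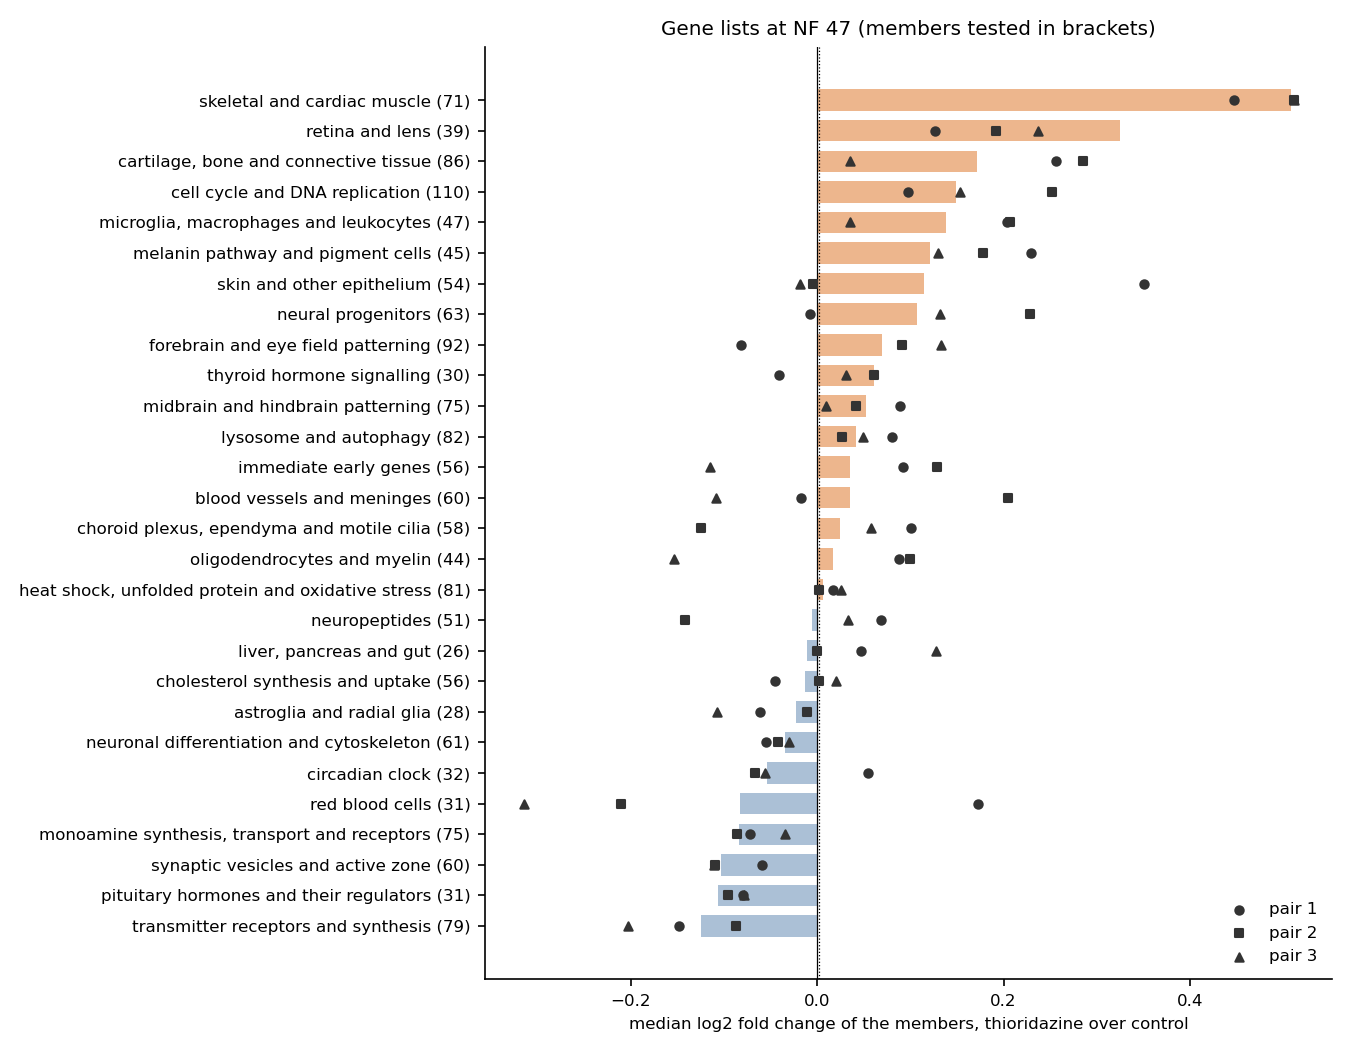
Bars give the median log2 fold change, thioridazine over control at NF 47, of each of the 28 gene lists in the unpaired fit, symbols the median in each pair, and the dotted line the median of 0.002 over all 25648 genes tested. Muscle (0.51) and retina and lens (0.33) stand highest, and transmitter receptors (-0.13) and pituitary genes (-0.11) lowest.

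Other lists stayed nearer to the median of all genes or rested on single libraries. Of 74 gene copies of retina and lens, 1 had no read and 39 were tested, with a median of 0.33 that became 0.01 without thioridazine replicate 3 and 0.16 without control replicate 2. Without overlap, 1 (2.56%) was higher and 1 (2.56%) lower, against 3.8% and 3.45% of all genes. The labels do not say whether the eyes were removed from the brains. Red blood cell genes had a median of -0.08 over 31 tested members, and 25 were lower. Their summed level was 3075, 2737 and 3161 CPM in thioridazine libraries and 2622, 4010 and 4614 CPM in control libraries, so control replicate 1 was the lowest library of all. Leaving out 1 library moved the median of this list between -0.19, without control replicate 1, and 0.04, without control replicate 3.

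Medians within 0.06 of 0 were found for blood vessels and meninges (0.04), choroid plexus and motile cilia (0.02), oligodendrocytes and myelin (0.02), lysosome and autophagy (0.04), immediate early genes (0.04), stress response (0.01), neuropeptides (-0.005), cholesterol synthesis (-0.01), liver, pancreas and gut (-0.01) and the circadian clock (-0.05). The thyroid hormone list had a median of 0.06. None of these lists had a called member. In the cholesterol list 0 of 56 tested members had groups without overlap in either direction, against the 3.8% and 3.45% of all genes. Of the 82 tested lysosome genes 8 (9.76%) were higher and 2 (2.44%) lower without overlap, against the same shares of all genes, and the list's median was 0.07 without control replicate 2. For lgmn.L, the gene of legumain, the levels were 95.8, 108.2 and 98.9 CPM in thioridazine libraries, against 69.9, 89.4 and 84.0 CPM in control libraries, and it was not called (edgeR with block, adjusted p = 0.205), while its copy lgmn.S had a log2 fold change of -0.10 (adjusted p = 0.848).

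The genome of X. laevis is allotetraploid, with similar .L and .S copies of many genes, and the copies give a partial check of single values. Both copies of 6677 genes were tested. In 37 of them both copies were higher without overlap, in 32 both were lower, and in 3 they went in opposite directions. Of the 49 called genes 25 had a tested other copy, which had the same sign in 23 and was itself called in 14. Over all genes tested 0.191% were called, and the share of same signs over the 6677 pairs was not counted. Reads from such copies may have been assigned to the wrong one, so agreement between them is not independent.

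The same contrast at NF 45, with 3 thioridazine and 3 control libraries, was set beside these results. The groups compared at NF 47 and at NF 45 share no library. The NF 45 fits used all 12 libraries, however, so their scaling and spread also come from the NF 47 libraries. The sign of the fold change was the same at NF 45 for 48 of the 49 called genes (LOC108701890 was the exception, at -0.02), but 0 of the 49 were called there, with or without the block, and 12 of the 45 genes that rose were higher in all 3 NF 45 pairs. The same shares over all genes were not counted. Genes of a group moved together across libraries, such as the 15 muscle genes, so the 48 are not separate agreements. NF 45 called 6 genes in all with the block. NF 47 itself, in fits of all 12 libraries, called 1 gene with the block and 0 without it. The 49 came from a fit of the 6 NF 47 libraries alone. That 0 of them were called at NF 45 therefore does not show a weaker response at that stage.

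The values of the gene groups at NF 45 stand beside those at NF 47 here, both from unpaired fits. The NF 47 fit used its own 6 libraries and the NF 45 fit all 12, so their SE rest on different libraries. The groups were not tested against each other. The 6 pigment genes had NF 45 log2 fold changes between 0.61 and 1.85, with SE of 0.29 to 0.69, beside 0.57 to 1.33 at NF 47. The 4 granulocyte and protease genes lay between 0.65 and 0.90 at NF 45, with SE of 0.26 to 0.38, beside 0.80 to 0.90 at NF 47. Their NF 45 pairs 1, 2 and 3 gave 0.15 to 0.69, 1.37 to 1.57 and 0.65 to 0.82. The 15 muscle genes lay between 0.07 and 0.45 at NF 45, with SE of 0.61 to 0.74, beside 0.59 to 0.85 at NF 47. The 4 oncomodulins lay between 0.44 and 0.97 at NF 45, with SE of 0.50 to 0.83, beside 0.78 to 1.27 at NF 47. The 3 collagens lay between 0.18 and 0.56 at NF 45, with SE of 0.38 to 0.89, beside 0.53 to 0.71 at NF 47. The NF 45 pairs disagreed in several groups. Pair 3 gave -1.17 to -0.62 for the muscle genes, -0.84 to -0.01 for the oncomodulins, -0.09 to 0.41 for the collagens and -0.20 to 1.26 for the pigment genes. For the muscle genes pair 1 gave 0.32 to 0.95 and pair 2 gave 0.36 to 0.73. Pair 1 was above 0 for every gene of these 4 groups, and so was pair 2 except among the collagens, where the lowest was -0.42. For prl.2.S the log2 fold change was 0.26 ± 0.25 at NF 45, for sall4.L 0.09 ± 0.25, and for gpr151.L -0.90 ± 0.32 (SE, unpaired edgeR fit of 12 libraries). In the same fit krt61.L had -0.51 ± 0.64, lcat.L -0.43 ± 0.15 and elf3.S 0.08 ± 1.08. The NF 45 levels of elf3.S were far apart within groups. They were 47.98, 1.56 and 28.3 CPM in thioridazine libraries, against 25.4, 1.75 and 46.5 CPM in control libraries.

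The difference between the stages was tested as an interaction over all 12 libraries. In edgeR 0 of 26570 genes passed an adjusted p of 0.05, and DESeq2 also called 0. At an unadjusted p under 0.05 edgeR had 91 genes (0.342%), again fewer than that threshold gives where no gene differs. Of the 49 called genes only prl.2.S had an unadjusted interaction p under 0.05, with 0.99 ± 0.34 more at NF 47 on the log2 scale (SE, edgeR, unadjusted p = 0.0145, adjusted p = 1). No gene is therefore shown to differ between NF 47 and NF 45 in its response. Nor do 0 calls in this test show that the responses were alike.

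**Figure D5:**
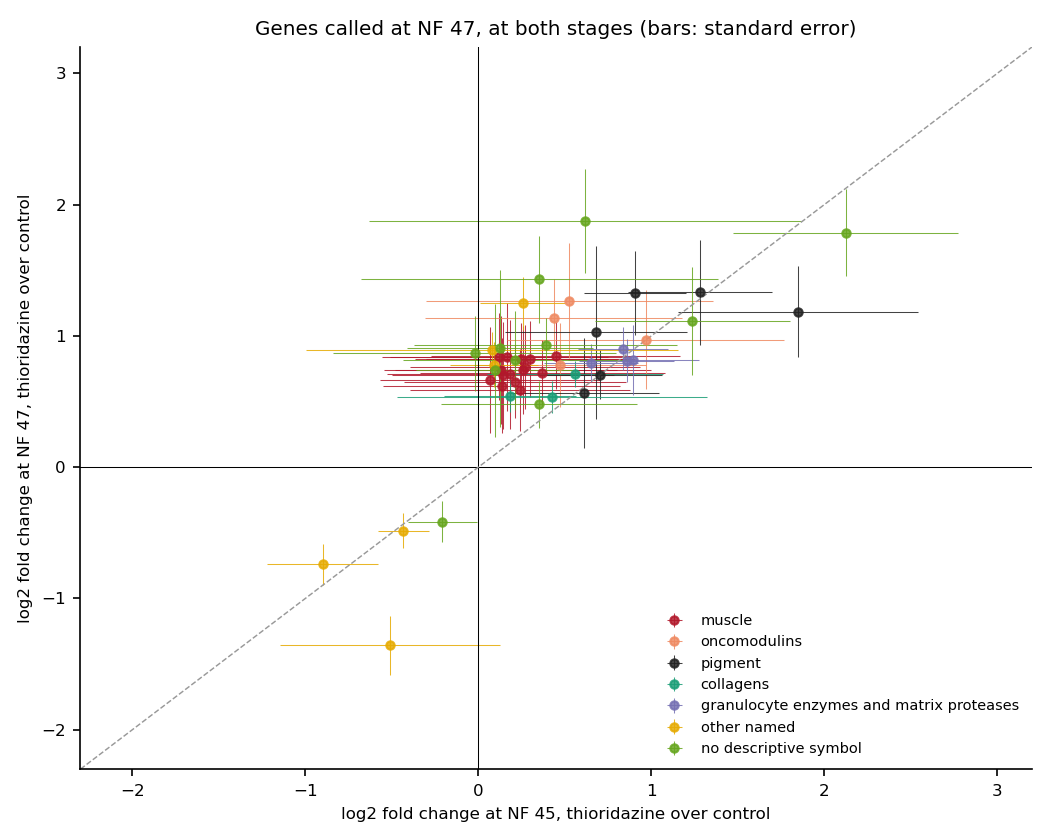
Log2 fold change, thioridazine over control, in unpaired fits at NF 45 (x axis) and NF 47 (y axis) for the 49 genes called at NF 47 with the replicate block, coloured by gene group, with standard error bars and a dashed line of equal values. The NF 47 fit used its own 6 libraries and the NF 45 fit all 12. The genes were chosen at NF 47, so only their position on the x axis is apart from that choice. Pigment genes lie between 0.61 and 1.85 on the x axis and muscle genes between 0.07 and 0.45.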

How the data were processed

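For each library the authors deposited raw counts, whole numbers of reads for 37018 gene numbers without normalization. Trimmomatic, HISAT2, HTSeq and DESeq2 are the tools in the submitters' processing notes. Their versions, the genome build, the strand setting and the handling of reads with several matches are not given in the sources used here. Per the labels' protocols, libraries were single-end reads of 100 bases. Gene numbers were matched to symbols in a RefSeq gene table of assembly Xenopus_laevis_v10.1, used for names only. It named 33597 numbers, which held 99.3% of NF 47 reads, and 3421 stayed unnamed in the tests.

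Counts of the 6 NF 47 libraries were filtered with filterByExpr, scaled by TMM and tested with the robust quasi-likelihood F test of edgeR 4.0.16 in R 4.3.3, with Benjamini-Hochberg adjustment over 25648 genes and a threshold of 0.05, unpaired and with the replicate number as a block. DESeq2 1.42.0 and voom of limma 3.58.1 were alternatives, among the other settings given at the end. Adjusted p-values without another name come from edgeR. The block is printed because same-numbered libraries deviated together, with correlations of 0.308, 0.316 and 0.542, against -0.379 to 0.105 between differently numbered libraries. Deviations cancel out within a group for each gene, so the values of differently numbered libraries are not independent of the others. The labels do not say what a number shares. Replicates of a group differed beyond sampling noise (chi-square per gene 6.909 to 12.57), and no library was a duplicate.

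The lists and members were chosen with earlier results of these data known, so list counts and medians are descriptions without a test. Named genes were all called genes, the 15 higher and 15 lower genes of smallest unpaired p without overlap, among those with a descriptive symbol and a mean of at least 1 CPM, the 3 of smallest p in each list, both copies of th and drd2, and the other copies. Medians of lists come from the unpaired fit. Counts do not cover variation in what was dissected.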

Additional observations from a re-analysis of the deposited data

How the results depend on the processing

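The unpaired test, with 0 calls, also gave 0 with all 12 libraries, RLE scaling, no filter on low counts, a mean of at least 1 CPM, summed .L and .S copies and limma-voom (1507 genes at an unadjusted p under 0.05). It gave 49 calls with the replicate block, 11 with DESeq2, 52 with DESeq2 and the replicate block, 1 with all 12 libraries and the replicate block, and 0 to 10 when 1 library was left out. Against the 49 blocked calls, tried under settings chosen after seeing the data, leaving out a replicate number gave 72 to 382 (218 of the 382 lower, without replicate 2), all 12 libraries with the block gave 1, and no filter on low counts with the block gave 137, while RLE scaling (54), a mean of at least 1 CPM (56) and summed copies (39) stayed within 1.5 times. The difference between stages kept 0 calls under each alternative, with 402 genes at an unadjusted p under 0.05 with the block. Scaling moved the median of all genes by less than 0.01. Of the 28 list medians 14 changed sign or reached 0 under some alternative. Among single genes named, 6 changed sign when 1 library was left out, all of them uncalled: chrna4.S (-0.056 to 0.135), drd2.S (-0.101 to 0.141), ednrb2.L (-0.478 to 0.069), lgmn.S (-0.235 to 0.031), mpo.S (-0.281 to 0.215) and th.S (-0.248 to 0.202). The causes were not tested. With 3 libraries a group, a p that misses the threshold does not show that the groups were alike.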
